A study of Mus musculus with 3 samples.

Results

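Translation factors are the proteins that start, carry forward and end protein synthesis on the ribosome. The 76 genes described here are the rows of the deposited expression table whose symbols begin with Eif1 to Eif6, Eef1 or Eef2, together with the release factor genes Etf1, Gspt1 and Gspt2 and the cytoplasmic poly(A)-binding protein genes of the Pabpc1 to Pabpc6 series. They were taken by name alone, without Eif2ak3, from 34617 rows. Names that match are not all translation factors: 5 rows carry Eif2c symbols, 4 of which RefSeq now lists as Ago1 to Ago4, the Argonaute genes of small RNA silencing. Eef1e1 is grouped with the elongation factors by its symbol, but its product belongs to the multi-tRNA synthetase complex.

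The study asked how 5-hydroxymethylcytosine, an oxidised form of 5-methylcytosine, acts in olfactory neurons of the mouse main olfactory epithelium. The O/Tet3 library was made from sorted cells of mice aged 4 weeks, strain Fvb, that carry OMP-tTA and tetO-Tet3-GFP. A transactivator under the olfactory marker protein gene so switches on the Tet3 transgene. Tet3 is an enzyme that makes 5-hydroxymethylcytosine. The mOSN library was made from sorted cells positive for OMP-ires-EGFP, a reporter of mature olfactory sensory neurons, in C57BL/6J mice of the same age. Total RNA of both was depleted of ribosomal RNA, and each group has 1 library, so no p-value or replicate check exists and genotype, strain, reporter and library cannot be told apart. Another sample of the series, immunoprecipitated DNA of O/Tet3 mice, is not analysed here.

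In initiation, the eIF2 complex brings the initiator tRNA to the small ribosomal subunit, eIF3 holds the assembly together, and the eIF4F complex recruits the capped mRNA. Elongation factor eEF1A then delivers each aminoacyl-tRNA and eEF2 moves the ribosome along. Many mRNAs of the translation machinery, those of ribosomal proteins, eEF1A1, eEF1B and eEF2 among them, begin with a run of pyrimidines at the 5′ end (5′ terminal oligopyrimidine or TOP mRNAs) and are controlled together through mTOR signalling. Neurons are known to switch from Eef1a1 to Eef1a2 as they mature in the brain.

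Levels are given as the linear value behind the deposited log2(value + 1), whose unit the file does not name. A log2 ratio sets O/Tet3 against mOSN after 1 is added to each value, which makes differences of weakly expressed genes look smaller, and a fold divides the values as they stand. Genes below 1 in both libraries were not compared. Those called higher or lower in O/Tet3 differ at least 2-fold in value + 1. Tet3 was at 145 in O/Tet3 and 3.72 in mOSN, which goes with the labels. The 6 mature neuron markers were present in both libraries and summed to 622 in O/Tet3 and 2794 in mOSN, all 6 lower in O/Tet3. The 5 immature neuron markers, led by Gap43 in O/Tet3 and Tubb3 in mOSN, summed to 93.02 in O/Tet3 and 40.3 in mOSN, with 3 higher and 0 lower and none at 0. Tubb3 went the other way within 2-fold, at 13.7 in O/Tet3 and 23.6 in mOSN. Progenitor, sustentacular, basal, gland, microvillous, glial, blood and vessel markers each summed to less than the immature markers in both libraries. Of these, sustentacular Ugt2a1 (2.53 in O/Tet3, 15.6 in mOSN), glial Fabp7 (0.0607 in O/Tet3, 4.78 in mOSN) and microvillous Ascl3 and Cftr were lower, and none was higher. The basal markers Krt5, Krt14 and Trp63 were all at 0 in O/Tet3. In such bulk RNA, fewer cells of a type and less RNA per cell cannot be told apart. The part of these marker differences in any result given here was not tested. The value of 1 read was 1.89-fold larger in the O/Tet3 library, read from the steps between low values, so a given value rests on fewer reads there; total depth is unknown.

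Most translation factor genes were at higher values in the O/Tet3 library, by modest amounts. The elongation factors, with Eef1e1 counted among them, had the highest median ratio, and the Argonaute genes were on the opposite side. Of the 76 genes, 67 could be compared, 18 were at least 2-fold higher in O/Tet3, and 1 was lower. Over all 12943 compared rows, 16.5% were higher and 12.0% lower, against 26.9% higher and 1.49% lower among the compared translation factor genes. Their median log2 ratio was 0.54 with quartiles of 0.21 and 1.01, beside a median of 0.21 over all compared rows with quartiles of −0.39 and 0.75. The ratio was above 0 for 54 of the 67 genes, or 80.6%, and for 60.5% of all compared rows. With the median ratio of the rows at 1 or more in each library (0.21) subtracted, 50 of the 67 stayed above 0, 13 were higher and 2 lower, where 11.3% of all compared rows were higher and 15.1% lower.

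Both libraries showed 64 of the 67 genes at 1 or more. Eif4ebp1 and Gspt2 reached it in O/Tet3 only and Eif4e3 in mOSN only, so their comparison depends on the library where they were high. The other 9 stayed below 1 in both: Eif4e1b, Eif4ebp3, Pabpc1l, Pabpc4 and Pabpc5 at low values, Pabpc4l at 0 in O/Tet3 and near 0 in mOSN, and Eif2c5, Pabpc2 and Pabpc6 listed at 0 in both. Just inside the 2-fold bound were Eif2b5 and Eif4a1, with log2 ratios of 1.02 and 1.01, and just outside it Eif3k and Eif3d, with 0.97 and 0.96. These 4 genes differ little from each other, so the count of 18 depends on where the bound is set.

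**Figure D1:**
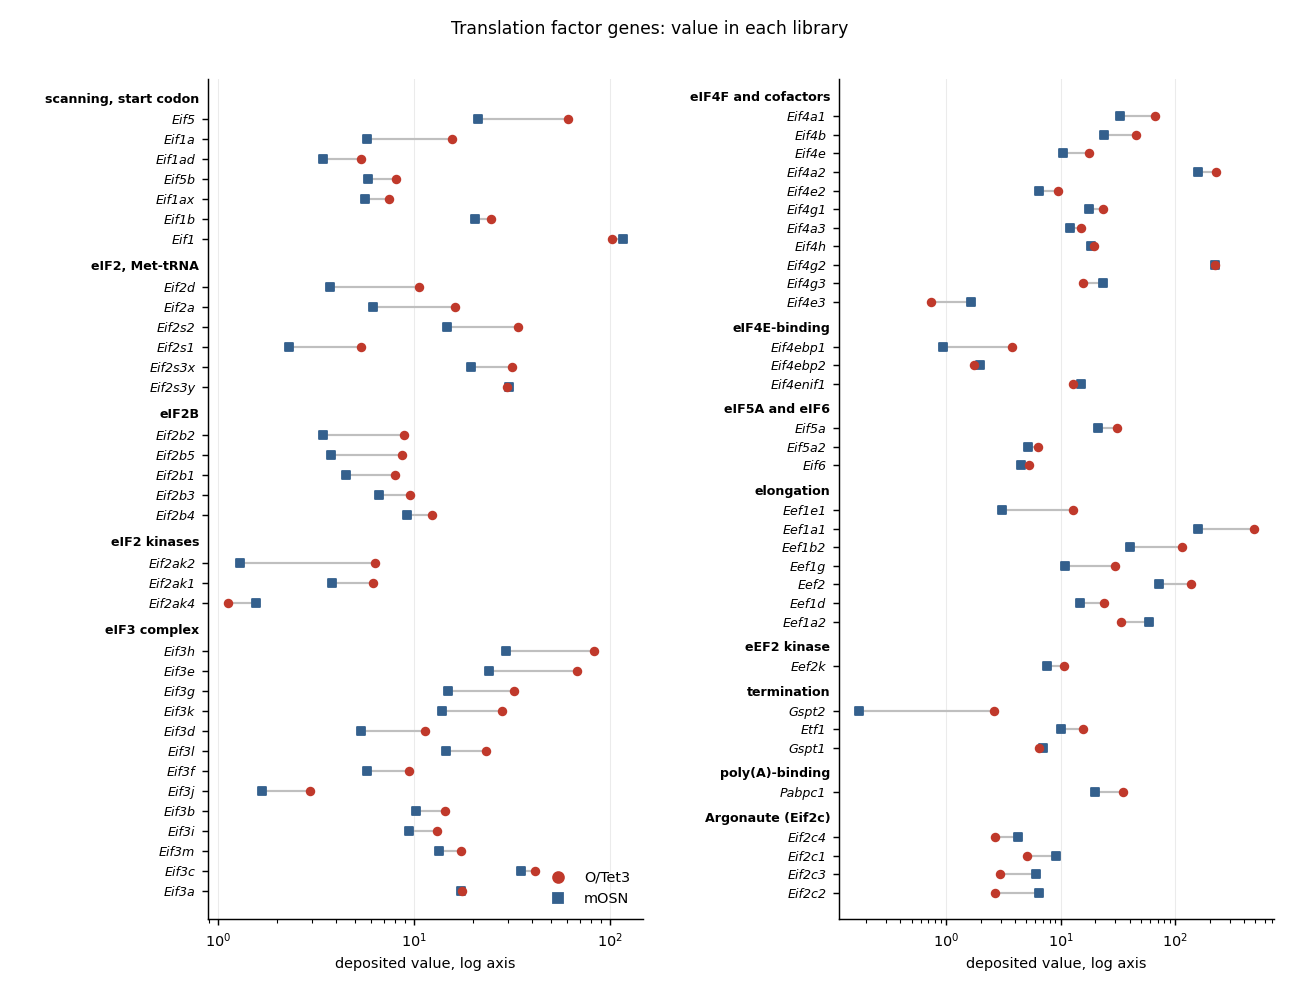
Deposited value (log axis, no unit named) of the 67 compared translation factor genes in the O/Tet3 library (circles) and the mOSN library (squares), grouped by role and sorted by ratio within each role; the panels have different axis ranges. Elongation factors except Eef1a2 lie to the right in O/Tet3, the 4 Argonaute genes lie to the left, and Eif4g2 (223 and 221) and Eif3a (17.5 and 17.4) nearly coincide.

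The elongation factors showed the highest median ratio of the roles with at least 3 compared genes. Of 7 genes, 4 (57.1%) were higher and 0 lower, beside 16.5% and 12.0% of all compared rows. The median log2 ratio of the 7 was 1.37. The 7 include Eef1e1, placed there by its symbol, which had the highest ratio of them (1.76). Without Eef1e1 the median lies between the ratios of Eef2 (0.92) and Eef1g (1.37). That range holds the median of the eIF2 genes (1.06), so the first place depends in part on Eef1e1. Eef1a1, which encodes the widely used form of eEF1A, had a value of 488 in O/Tet3 and 159 in mOSN, 3.07-fold higher (log2 ratio 1.61), the highest of all 76 genes in O/Tet3. Eef1a2, the form that takes over in adult neurons and muscle, went the other way, with a value of 33.7 in O/Tet3 and 58.8 in mOSN, 1.74-fold lower (log2 ratio −0.78). Eef1a2 was the only elongation factor gene with a ratio below 0. It made up 6.47% of the summed eEF1A value in O/Tet3 and 27.0% in mOSN, and the ratio of Eef1a1 to Eef1a2 was 14.5 in O/Tet3 and 2.70 in mOSN. Eef1a1 has many near-identical processed copies in the genome, and the labels do not say how reads were divided among them.

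The bases around the annotated start of these genes are shown because the TOP class is defined by the 5′ end of the mRNA. The annotated start need not be the 5′ end used in these cells. Each line gives 25 bases before and 25 from the start on, 5′ to 3′ on the gene's strand, from RefSeq (GRCm38.p6), with the longest run of C and T that touches the region from 10 bases before to 20 bases after the start in capitals (the first one where 2 are equally long, as in Eef1b2 and Eif4b). Eef1a1 lies at chr9:78481700-78481749 (minus strand), Eef1a2 at chr2:181156991-181157040 (minus strand), Eef2 at chr10:81176606-81176655 (plus strand), Eif3f at chr7:108934390-108934439 (plus strand), Eef1b2 at chr1:63176806-63176855 (plus strand) and Eif4b at chr15:102073748-102073797 (plus strand).
Eef1a1: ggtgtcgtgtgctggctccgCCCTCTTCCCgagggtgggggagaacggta
Eef1a2: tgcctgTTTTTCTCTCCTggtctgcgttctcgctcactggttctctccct
Eef2: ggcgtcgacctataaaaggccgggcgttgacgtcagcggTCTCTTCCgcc
Eif3f: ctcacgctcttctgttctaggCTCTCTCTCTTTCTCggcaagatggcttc
Eef1b2: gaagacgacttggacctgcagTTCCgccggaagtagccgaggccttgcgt
Eif4b: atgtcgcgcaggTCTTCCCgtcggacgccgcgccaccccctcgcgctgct

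In Eef1a1 and Eif3f the run spans the annotated start. The run of Eef1a2 ends before the start, and that of Eef2 begins 15 bases into the transcript. Those of Eef1b2 and Eif4b, both counted in the TOP class, are 4 and 7 bases long, and each has 2 such runs, 1 before and 1 after the start.

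Of the 3 subunit genes of eEF1B, the exchange factor that reloads eEF1A with GTP, 2 were higher. Eef1b2 had a value of 113 in O/Tet3 and 40.3 in mOSN, 2.82-fold higher. Eef1g was at 29.8 in O/Tet3 and 10.96 in mOSN, 2.72-fold higher. Eef1d was at 23.8 in O/Tet3 and 14.8 in mOSN (log2 ratio 0.64), below the bound. The 3 subunit genes thus kept unequal levels in both libraries, with Eef1b2 the highest in each. Eef1e1, whose product belongs to the multi-tRNA synthetase complex, had values of 12.8 in O/Tet3 and 3.07 in mOSN, 4.16-fold higher (log2 ratio 1.76). Eef2 was at 136 in O/Tet3 and 71.5 in mOSN (log2 ratio 0.92). Its inhibitory kinase gene Eef2k was at 10.6 in O/Tet3 and 7.65 in mOSN (log2 ratio 0.43), a smaller ratio than that of its target.

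**Figure D2:**
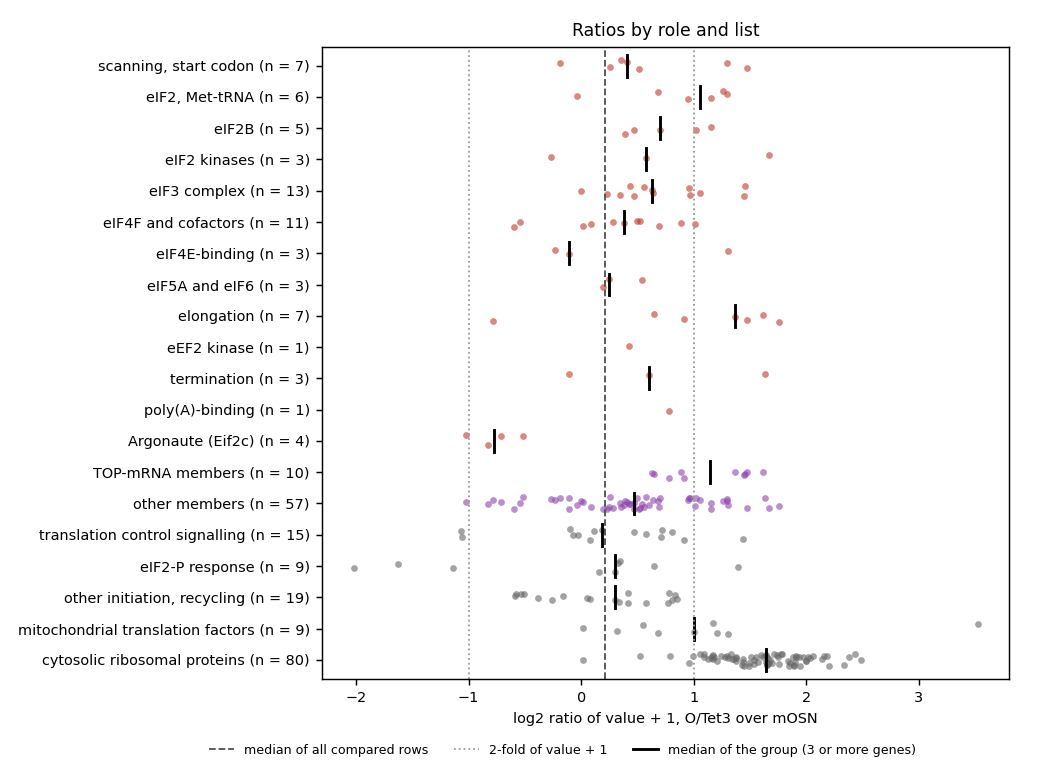
Log2 ratio of value + 1, O/Tet3 over mOSN, for each compared gene by role (red), for TOP-mRNA members and the other members (purple), and for other gene lists of translation (grey); black bars are medians of groups with at least 3 genes, the dashed line is the median of all compared rows (0.21) and dotted lines mark 2-fold. The medians run from −0.77 for Argonaute genes to 1.37 for elongation factors among the roles, and the cytosolic ribosomal proteins lie further right at 1.64.

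The genes of the eIF2 complex and of initiator tRNA delivery were the next furthest apart, with a median ratio of 1.06. Beside 16.5% higher and 12.0% lower of all compared rows, 3 of these 6 genes (50%) were higher and 0 lower. Eif2s1, encoding the alpha subunit that stress kinases phosphorylate, was the lowest of them at 5.39 in O/Tet3 and 2.30 in mOSN (log2 ratio 0.95). Eif2s2, the beta subunit, was at 33.9 in O/Tet3 and 14.6 in mOSN, 2.31-fold higher, and inside 2-fold with the 0.21 subtracted (log2 ratio 0.95). Eif2d, which can place tRNA on the start codon without eIF2, was at 10.6 in O/Tet3 and 3.73 in mOSN, 2.85-fold higher. Eif2a, a separate initiation factor and not the alpha subunit of eIF2, was at 16.1 in O/Tet3 and 6.14 in mOSN, 2.62-fold higher. Eif2a overlaps Serp1 and Eif2d overlaps Rassf5 in RefSeq, and reads of overlapping genes could not be separated here.

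The gamma subunit of eIF2 comes from a pair of genes, Eif2s3x on chromosome X and Eif2s3y on chromosome Y. Their annotated starts are shown because the nearly alike genes differ in sequence there, with the same layout as above, at chrX:94212627-94212676 (minus strand) and chrY:1010570-1010619 (plus strand) of GRCm38.p6.
Eif2s3x: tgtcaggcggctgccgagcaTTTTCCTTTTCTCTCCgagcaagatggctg
Eif2s3y: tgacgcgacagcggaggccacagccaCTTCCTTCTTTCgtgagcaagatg

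Eif2s3x was at 31.7 in O/Tet3 and 19.4 in mOSN, 1.63-fold higher (log2 ratio 0.68). Eif2s3y was at 29.9 in O/Tet3 and 30.6 in mOSN (log2 ratio −0.03). The X-linked gene held 51.4% of the summed gamma value in O/Tet3 and 38.8% in mOSN. The labels give no sex. Xist, which is transcribed from the inactive X chromosome, was at 5.79 in O/Tet3 and 0.0137 in mOSN, while Kdm5d, Uty and Ddx3y, which are Y-linked, were all within 2-fold. Both libraries therefore hold Y-linked transcripts, and the part of the sex of the animals in the Eif2s3x value was not tested. Reads that fit both gamma genes could have been divided between them.

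All 5 genes of eIF2B, which recharges eIF2 with GTP, had ratios above 0, with a median of 0.70. Eif2b2 was at 8.85 in O/Tet3 and 3.44 in mOSN, 2.57-fold higher, and Eif2b5, the catalytic epsilon subunit, was at 8.67 in O/Tet3 and 3.78 in mOSN, 2.29-fold higher. With the 0.21 subtracted, neither passed 2-fold, with log2 ratios of 0.94 for Eif2b2 and 0.81 for Eif2b5. The subunit with the highest level, Eif2b4, was at 12.4 in O/Tet3 and 9.23 in mOSN (log2 ratio 0.39). The 5 levels lay within 1.56-fold of each other in O/Tet3 and within 2.68-fold in mOSN.

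Among the 3 eIF2 kinase genes in the set, Eif2ak2 stood apart. Eif2ak3, a further eIF2 kinase gene, is outside the set and is given below. Eif2ak2 encodes PKR, which is activated by double-stranded RNA and induced by interferon. It was at 6.30 in O/Tet3 and at 1.29 in mOSN, near the floor of 1, and so 4.86-fold higher in O/Tet3 (log2 ratio 1.67). Eif2ak1, the kinase regulated by heme, was at 6.17 in O/Tet3 and 3.82 in mOSN (log2 ratio 0.57). Eif2ak4, the kinase that senses amino acid lack, was at 1.12 in O/Tet3 and 1.56 in mOSN (log2 ratio −0.27). RefSeq lists 2 further genes that overlap Eif2ak2.

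In scanning and start codon selection, 2 of 7 genes (28.6%) were higher and 0 lower (median log2 ratio 0.41), beside 16.5% and 12.0% of all compared rows. Eif5, which makes eIF2 hydrolyse its GTP at the start codon, was at 60.9 in O/Tet3 and 21.3 in mOSN, 2.86-fold higher (log2 ratio 1.47). Eif1a was at 15.6 in O/Tet3 and 5.77 in mOSN, 2.71-fold higher, whereas its X-linked paralog Eif1ax was at 7.47 in O/Tet3 and 5.63 in mOSN (log2 ratio 0.35). Eif1a so made up 67.6% of the summed eIF1A value in O/Tet3 and 50.6% in mOSN. How reads that fit both paralogs were divided between them is not known. Eif1, which guards start codon choice and was the most abundant gene of this role, was at 102 in O/Tet3 and 117 in mOSN (log2 ratio −0.19). Its paralog Eif1b was at 24.6 in O/Tet3 and 20.4 in mOSN. Eif5b, which joins the ribosomal subunits, was at 8.04 in O/Tet3 and 5.82 in mOSN, and Eif1ad was at 5.33 in O/Tet3 and 3.44 in mOSN, both within 2-fold.

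The 13 eIF3 subunit genes had ratios from 0.0024 to 1.45, with a median of 0.63. Of the 13, 3 (23.1%) were higher, beside 16.5% of all compared rows. All subunit genes but Eif3a stayed above 0 with that 0.21 subtracted. Eif3h was at 82.4 in O/Tet3 and 29.5 in mOSN, 2.79-fold higher, and Eif3e was at 67.8 in O/Tet3 and 24.2 in mOSN, 2.80-fold higher. Both encode subunits that the eIF3 of budding yeast lacks, and both mRNAs are in the TOP class. Eif3g, an RNA-binding subunit, was at 32.3 in O/Tet3 and 14.96 in mOSN, 2.16-fold higher, and inside 2-fold with the 0.21 subtracted (log2 ratio 0.85). Eif3a, the large scaffold subunit, was at 17.5 in O/Tet3 and 17.4 in mOSN, and Eif3c, another core subunit, was at 41.2 in O/Tet3 and 35.1 in mOSN. The subunit with the highest level was thus Eif3h in O/Tet3 and Eif3c in mOSN. Eif3j, a loosely bound subunit, was the lowest in both libraries, at 2.93 in O/Tet3 and 1.67 in mOSN. Levels ranged 28.1-fold across the 13 genes in O/Tet3 and 21.1-fold in mOSN. Eif3f, the other eIF3 gene on the TOP list, was at 9.43 in O/Tet3 and 5.75 in mOSN (log2 ratio 0.63), a smaller ratio than those of Eif3e and Eif3h. The pseudogene rows Eif3s6-ps1, at 5.12 in O/Tet3 and 1.96 in mOSN, and Eif3s6-ps2, at 2.16 in O/Tet3 and 0.277 in mOSN, were named after Eif3e by an older symbol and were also higher, so reads of this gene may have been shared with its copies.

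The eIF4F genes, which bind the cap and unwind the mRNA, had a median log2 ratio of 0.38. It was closer to that of all compared rows (0.21) than the median of the whole set (0.54) was. Of 11 compared genes, 1 (9.09%) was higher and 0 lower, beside 16.5% and 12.0% of all compared rows. Eif4a1, the main eIF4A helicase of growing cells, was at 66.7 in O/Tet3 and 32.6 in mOSN, 2.04-fold higher, and inside 2-fold with the 0.21 subtracted (log2 ratio 0.80). Eif4a2, the form abundant in brain, was at 226 in O/Tet3 and 157 in mOSN (log2 ratio 0.52) and remained the larger part, with 77.2% of the summed value of the pair in O/Tet3 and 82.8% in mOSN. The pseudogene row Eif4a-ps4 was at 24.2 in O/Tet3 and 10.5 in mOSN. Small RNA genes lie inside both Eif4a1 and Eif4a2. Eif4a3, a helicase of the exon junction complex, was at 14.9 in O/Tet3 and 12.1 in mOSN. Eif4b, a helicase cofactor, was at 45.3 in O/Tet3 and 24.1 in mOSN (log2 ratio 0.89), and Eif4h at 19.4 in O/Tet3 and 18.2 in mOSN (log2 ratio 0.09).

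The scaffold genes of eIF4F differed in direction. Eif4g1 was at 23.2 in O/Tet3 and 17.6 in mOSN (log2 ratio 0.38). Eif4g3, which can replace it, was at 15.8 in O/Tet3 and 23.5 in mOSN (log2 ratio −0.55). Eif4g2, a related protein that lacks the eIF4E-binding site, was at 223 in O/Tet3 and 221 in mOSN, the highest of the 76 genes in mOSN. The 3 genes together summed to 262 in both libraries.

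Among the cap-binding genes, Eif4e was at 17.5 in O/Tet3 and 10.5 in mOSN (log2 ratio 0.69) and Eif4e2, whose product represses translation, at 9.45 in O/Tet3 and 6.43 in mOSN (log2 ratio 0.49). Eif4e3 was at 0.742 in O/Tet3 and 1.64 in mOSN (log2 ratio −0.60). A second row named Eif4e3.1 was at 17.7 in O/Tet3 and 21.4 in mOSN and is not in the set by name, so the level of this gene is uncertain. Eif4e1b, a form known from egg cells, was at 0.01996 in O/Tet3 and 0.0741 in mOSN, too low to compare. Eif4e held 63.2% of the summed value of these 4 genes in O/Tet3 and 56.3% in mOSN. With the second row added, a choice made after the values were seen, Eif4e held 38.5% in O/Tet3 and 26.2% in mOSN, and Eif4e3.1 held 39.0% in O/Tet3 and 53.4% in mOSN.

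The genes whose products hold back eIF4E gave a mixed picture with a median log2 ratio of −0.11 over 3 genes. Eif4ebp1 was at 3.77 in O/Tet3 and 0.934 in mOSN, 4.04-fold higher (log2 ratio 1.30), while Eif4ebp2, the main form in brain, was at 1.74 in O/Tet3 and 1.96 in mOSN. Eif4ebp3 was at 0.521 in O/Tet3 and 0.206 in mOSN. Within these 3 paralogs Eif4ebp1 held 62.5% of the summed value in O/Tet3 and 30.1% in mOSN, and Eif4ebp2 held 28.9% in O/Tet3 and 63.3% in mOSN. Eif4enif1, which carries eIF4E into the nucleus, was at 12.7 in O/Tet3 and 15.1 in mOSN (log2 ratio −0.23).

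**Figure D3:**
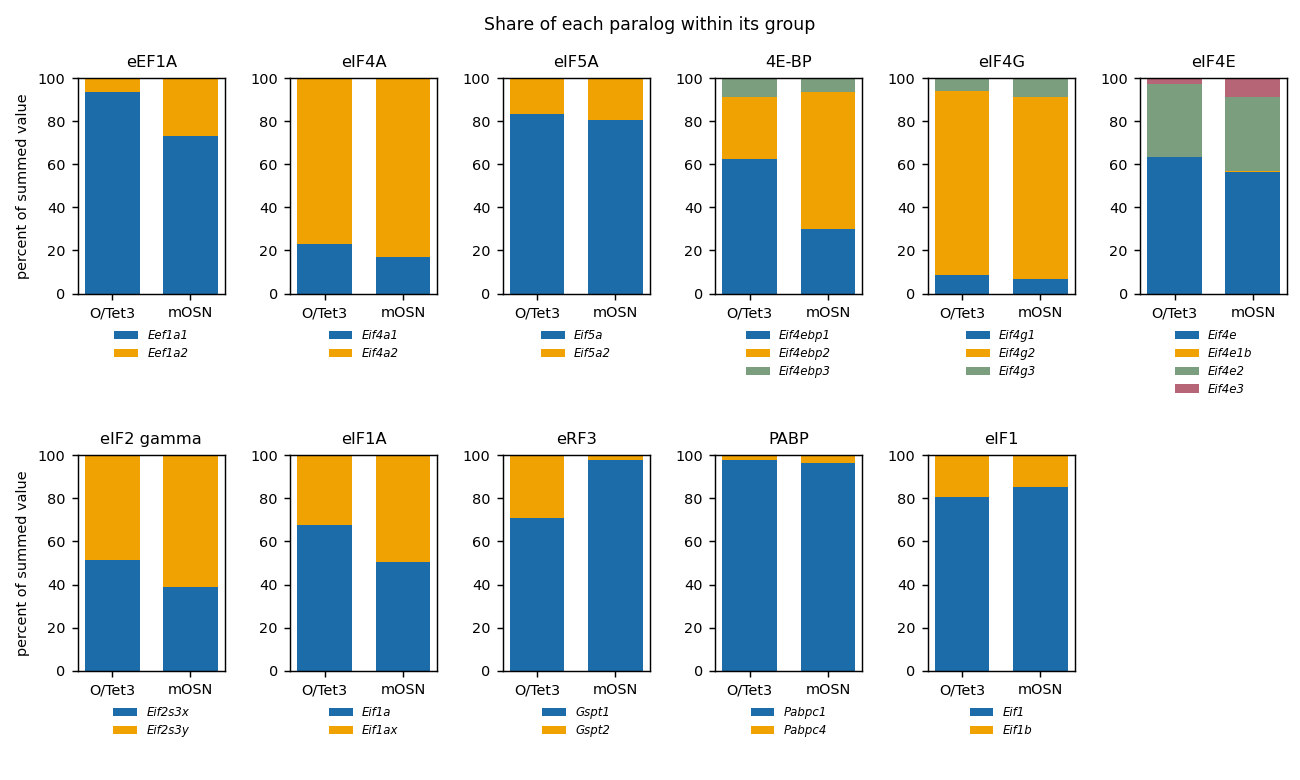
Percent of the summed value that each paralog holds in its group, for 11 groups, with the O/Tet3 library on the left and the mOSN library on the right of each panel; the eIF4E panel leaves out the row Eif4e3.1. The eEF1A, 4E-BP and eRF3 panels differ most in the share of the lead gene: Eef1a1 holds 93.5% in O/Tet3 and 73.0% in mOSN, Eif4ebp1 holds 62.5% in O/Tet3 and 30.1% in mOSN, and Gspt1 holds 71.0% in O/Tet3 and 97.6% in mOSN.

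Eif5a, Eif5a2 and Eif6 were within 2-fold. Eif5a, which carries the hypusine residue that helps the ribosome past difficult stretches such as prolines, was at 31.3 in O/Tet3 and 21.2 in mOSN (log2 ratio 0.54) and Eif5a2 at 6.30 in O/Tet3 and 5.16 in mOSN (log2 ratio 0.24). The pseudogene row Eif5al3-ps was at 3.23 in O/Tet3 and 0.212 in mOSN. Eif6, which keeps the large subunit from joining too early, was at 5.28 in O/Tet3 and 4.49 in mOSN (log2 ratio 0.19).

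At termination, Etf1, encoding the release factor eRF1, was at 15.6 in O/Tet3 and 9.97 in mOSN (log2 ratio 0.60), and Gspt1, encoding its partner eRF3a, at 6.42 in O/Tet3 and 7.02 in mOSN (log2 ratio −0.11). Gspt2, the X-linked eRF3b gene, was at 2.63 in O/Tet3 and 0.173 in mOSN, 15.2-fold higher (log2 ratio 1.63), with a low mOSN value. Gspt2 held 29.0% of the summed eRF3 value in O/Tet3 and 2.40% in mOSN. Its sequence is close to that of Gspt1, so the division of reads between them is uncertain.

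Of the 7 poly(A)-binding protein genes only Pabpc1 was compared, at 34.7 in O/Tet3 and 19.9 in mOSN (log2 ratio 0.78). Pabpc1 supplied most of the message of this family in both libraries. Pabpc4 was at 0.713 in O/Tet3 and 0.697 in mOSN, Pabpc1l at 0.993 in O/Tet3 and 0.491 in mOSN, and Pabpc5 at 0.227 in O/Tet3 and 0.130 in mOSN.

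The Argonaute genes, which entered the set through their older names, ran against most of the set. Eef1a2 (log2 ratio −0.78), Eif4e3 (−0.60), Eif4g3 (−0.55) and some further genes were also below 0. All 4 compared Argonaute genes had ratios below 0, with a median of −0.77, and 1 (25%) was lower past 2-fold, beside 12.0% of all compared rows. Eif2c2 (Ago2), whose product is the Argonaute able to cut its target, was at 2.66 in O/Tet3 and 6.44 in mOSN, 2.42-fold lower (log2 ratio −1.02). Eif2c1 (Ago1) was at 5.13 in O/Tet3 and 9.07 in mOSN, Eif2c3 (Ago3) at 2.97 in O/Tet3 and 6.04 in mOSN (lower past 2-fold with the 0.21 subtracted, log2 ratio −1.03), and Eif2c4 (Ago4) at 2.68 in O/Tet3 and 4.27 in mOSN. Without the Argonaute rows, 18 of 63 compared genes were higher and 0 lower, with a median of 0.57.

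The 10 genes of the set listed as TOP mRNAs were taken from background knowledge, and the list may not be complete. They are Eef1a1, Eef1b2, Eef1d, Eef1g, Eef2, Eif3e, Eif3f, Eif3h, Eif4b and Pabpc1. Eif2s3x, whose run of 16 bases spans its annotated start, is not on the list. All 10 had ratios above 0, from 0.63 to 1.61. Of these 5 (50%) were higher and 0 lower (median log2 ratio 1.14). Among the other 57 compared genes 13 (22.8%) were higher and 1 (1.75%) lower, with a median of 0.47. Over all compared rows 16.5% were higher and 12.0% lower. Eef1a1, Eef1b2, Eef1d, Eef1g and Eef2 are also elongation factors, so the TOP and elongation results are not separate. Eef1a2, an elongation factor gene outside this list, was at −0.78; with it added, a choice made after the values were seen, 10 of 11 ratios were above 0 and the median was 0.92. Cytosolic ribosomal proteins, the largest TOP class, had 75 of 80 compared genes (93.8%) higher, 0 lower and a median of 1.64.

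RefSeq start regions were at hand for 56 of the 76 genes, which leaves out Eef1d, Eef1g, Eif3e, Eif3h and Pabpc1 of the TOP list. An unbroken run of at least 8 C or T bases in the region described above was found at an annotated start of 16 of the 56, or 28.6%, against 19.2% of all 27025 genes with such a region and 49.2% of 61 cytosolic ribosomal protein genes. Of the 5 TOP-list genes with a region, Eef1b2 and Eif4b did not reach 8 bases. Runs that end before the annotated start, such as that of Eef1a2, were counted. The search therefore does not measure which mRNAs are in the TOP class. Among the 14 compared genes with a run, 3 were higher and the median log2 ratio was 0.66. Among the 38 without, 9 were higher and the median was 0.48. Of all compared rows, with or without a start region, 16.5% were higher. The longest run, 21 bases, was that of Eif2b5. The E-box CACGTG, the letters bound by Myc and related factors, was present in the 300 bases around a start (250 before and 50 after) in 12 of 56 genes, or 21.4%, against 8.09% of all genes. Its reverse complement is the same sequence, so both strands were searched at once. Of the 12 compared genes with the E-box, 1 was higher and the median ratio was 0.48; of the 40 without it, 11 were higher and the median was 0.52. The TATA letters TATAAA, searched on both strands, were present in 6 genes, or 10.7%, against 15.7% of all genes. Genes with several annotated starts had more than 1 chance to hold a match, and a match is no evidence of binding.

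Of 15 signalling and mRNA-binding regulators outside the set, 1 (6.67%) was higher and 2 (13.3%) were lower, beside 16.5% and 12.0% of all compared rows. Their median log2 ratio of 0.19 became −0.0203 with the same 0.21 subtracted. Mtor was at 3.67 in O/Tet3 and 3.43 in mOSN, and its partner Rptor at 3.20 in O/Tet3 and 3.40 in mOSN. Larp1, whose product binds the start of TOP mRNAs and represses them, was at 7.94 in O/Tet3 and 17.7 in mOSN, 2.23-fold lower (log2 ratio −1.07). Mknk2, an eIF4E kinase, was at 1.12 in O/Tet3 and 3.42 in mOSN (log2 ratio −1.06), whereas the related Mknk1 was at 9.30 in O/Tet3 and 4.48 in mOSN (log2 ratio 0.91). Paip2, an inhibitor of poly(A)-binding protein, was at 73.5 in O/Tet3 and 26.5 in mOSN, 2.77-fold higher.

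Genes of eIF2 phosphorylation, of its reversal and of the response to it spread widely, with a median of 0.30. Of 9 compared genes, 3 (33.3%) were lower and 1 (11.1%) was higher, beside 12.0% lower and 16.5% higher of all compared rows. Ppp1r15b and Ppp1r15a encode the subunits that direct phosphatase to eIF2 and so reverse the work of the kinases. Ppp1r15b was at 8.82 in O/Tet3 and 38.9 in mOSN, 4.41-fold lower (log2 ratio −2.02), and Ppp1r15a at 7.61 in O/Tet3 and 25.6 in mOSN, 3.37-fold lower (log2 ratio −1.63). Trib3, a pseudokinase, was at 0.881 in O/Tet3 and 3.15 in mOSN. The transcription factor genes Atf4, at 65.3 in O/Tet3 and 58.4 in mOSN, and Ddit3, at 63.7 in O/Tet3 and 50.7 in mOSN, were within 2-fold, as was the eIF2 kinase gene Eif2ak3 at 7.44 in O/Tet3 and 5.86 in mOSN. Asns, encoding asparagine synthetase, was at 11.04 in O/Tet3 and 3.58 in mOSN, 3.08-fold higher.

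None of 19 other initiation, recycling and modification factors was higher or lower at 2-fold (median 0.30), beside 16.5% higher and 12.0% lower of all compared rows. Lgtn, listed with them, is an older name of Eif2d. The highest ratio was that of Abce1, which splits ribosomes after termination, at 11.3 in O/Tet3 and 5.79 in mOSN (log2 ratio 0.85), and the lowest that of Cyfip1, an eIF4E-binding partner of FMRP, at 2.96 in O/Tet3 and 4.97 in mOSN (log2 ratio −0.59). Of 9 mitochondrial translation factors, 5 were higher and 0 lower, with a median of 1.001, beside 16.5% higher among all compared rows. With the 0.21 subtracted, 2 were higher, where 11.3% of all compared rows were. Tufm, the mitochondrial counterpart of eEF1A, was at 11.3 in O/Tet3 and 4.01 in mOSN, 2.83-fold higher. Gfm2, a mitochondrial ribosome recycling factor, was at 10.5 in O/Tet3 and is listed at 0 in mOSN, which can be a failed estimate. Mtif3, an initiation factor, had the lowest ratio, at 5.35 in O/Tet3 and 5.27 in mOSN.

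**Figure D4:**
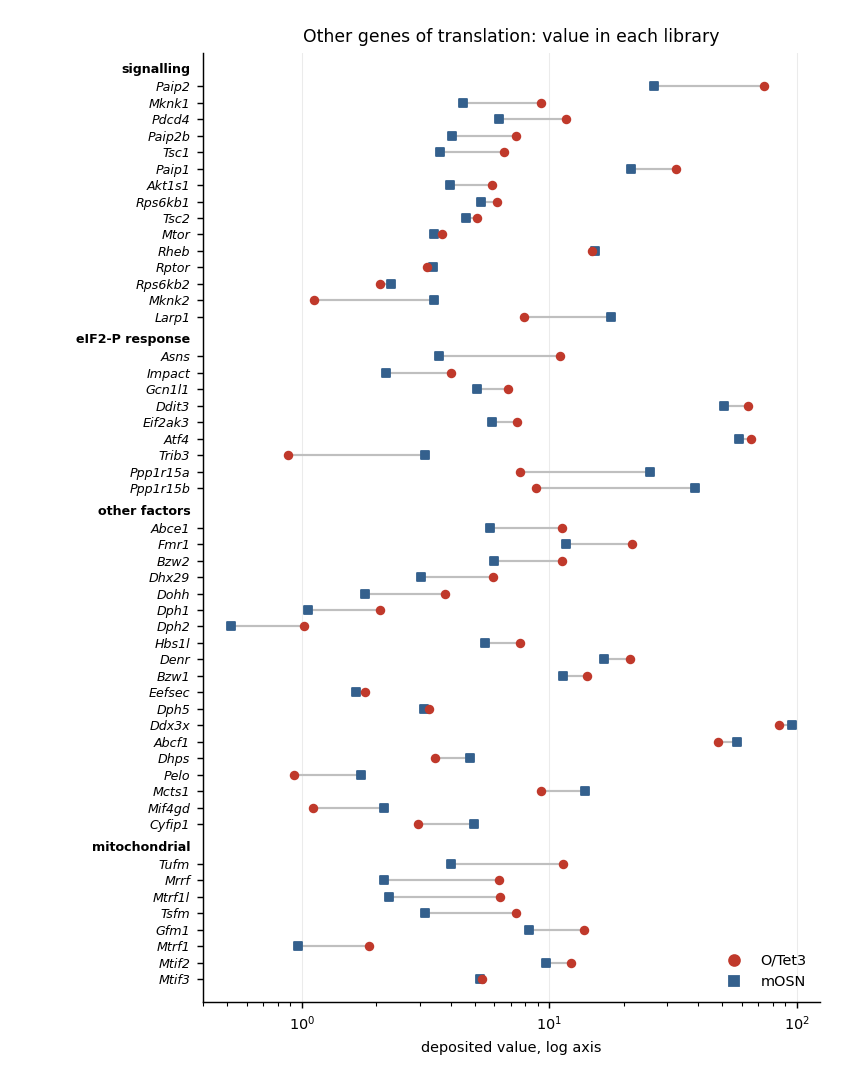
Deposited value (log axis, no unit named) of compared genes of translation outside the set, in the O/Tet3 library (circles) and the mOSN library (squares), by list; Gfm2, listed at 0 in mOSN, is left out. Ppp1r15b (8.82 in O/Tet3, 38.9 in mOSN) and Ppp1r15a lie far to the left in O/Tet3 while Atf4 and Ddit3 stay close, and Larp1 and Mknk2 are the lower genes among the signalling regulators.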

How the data were processed

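Per the labels' protocols, the RiboMinus kit removed ribosomal RNA from the total RNA of sorted cells and the ScriptSeq kit was used for the libraries. Cuffdiff, Bowtie, Bowtie2 and the build mm9 appear in the submitters' processing notes, with no roles or versions; the annotation and strand setting are not given in the sources used here. The deposited table holds 1 log2 value per gene and library. These deposited log2 values were read as log2(value + 1): the lowest is 0, and the back-transformed numbers have at most 6 significant digits in 99.3% (O/Tet3) and 99.4% (mOSN) of values above 0.01, as Cuffdiff prints FPKM, a unit scaled by length. The deposited ratio equals the O/Tet3 minus the mOSN column. Columns were assigned by name.

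Python 3.11.15, numpy 2.4.6 and pandas 2.3.3 were used. The calling step was checked on mOSN values with exact folds placed in them, without noise. Such a check covers the arithmetic only and gives no error rate for the calls. With 1 library a group no test was run; lists are described by counts and medians beside all compared rows. Alternatives were centring, a pseudocount of 0.1, a floor of 5, no floor, omission of rows at 0 and of Argonaute genes, and a 3-fold bound. The text names members past 2-fold, the most abundant and the most different of each role, paralogs and members next to the bound, and the extremes of each other list; further genes were named after their values were seen. Members, lists and rules were chosen with earlier results of these data known, and the search for pyrimidine runs after the values were seen. RefSeq spans (GRCm38) were used for names and overlaps: 30 of 76 members overlap another gene, among them 6 of the 18 higher ones (in 3 of these 6 only small RNA genes), and their reads cannot be told apart without strand.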

Additional observations from a re-analysis of the deposited data

How the results depend on the processing

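A count was taken as alike within 1.5 times and a median within log2 0.58. Of 169 values of list counts and medians under the alternatives listed with the methods, 158 were alike. Many of these were bound to be alike, so the tally does not measure robustness. Centring shifts each median by 0.21, which is inside the 0.58 allowed. No compared member is listed at 0, and leaving out the Argonaute genes cannot alter the other roles. The count of lower members, 1, became 2 with centring, 3 with a pseudocount of 0.1, and 0 without Argonaute genes and at 3-fold, where the count of higher members was 4 in place of 18. Of all compared rows, 15.1% were lower with centring. With a pseudocount of 0.1, 23.4% of all compared rows were higher and 15.6% lower, and with a floor of 5, 19.6% and 11.1%. The share of all rows at 3-fold was not computed. Centring took the median of the signalling regulators from 0.19 to −0.0203 and the higher mitochondrial factors from 5 to 2. With a pseudocount of 0.1, 2 signalling regulators and 1 of the other initiation and recycling factors were higher, and with a floor of 5, 1 signalling regulator was lower. With no floor the median of the eIF4E-binding genes turned from −0.11 to 0.11, as Eif4ebp3 then enters. Centring subtracts 0.21, the median ratio of the rows at 1 or more in each library, and stricter bounds count fewer genes by construction; otherwise the cause was not tested. Of 134 single-gene ratios under centring or the pseudocount, 11 crossed the bound and none that was called changed sign. Centring put Eif2b2, Eif2b5, Eif2s2, Eif3g and Eif4a1 inside 2-fold. Of the alternatives chosen after seeing the data, the row Eif4e3.1 took the Eif4e share to 38.5% in O/Tet3 and 26.2% in mOSN, and Eef1a2 took the TOP median to 0.92. No paired analysis was possible because there is a single library in each group. Fewer reads per value in O/Tet3 limit what can be said of genes near a value of 1.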

Other observations

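The order of the translation factor genes by level was similar in the libraries: across the 67 compared genes, which share library and normalization, the Pearson correlation of log2 values was 0.91 and the Spearman correlation 0.91, given as a description across genes. Eef1a1 ranked 46 among all 34617 rows in O/Tet3 and 89 in mOSN. Eif4a2 ranked 85 in O/Tet3 and 90 in mOSN, and Eif4g2 ranked 87 in O/Tet3 and 69 in mOSN. Eef1a2 ranked 934 in O/Tet3 and 331 in mOSN, and Eif3h ranked 280 in O/Tet3 and 912 in mOSN.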
